A study of Mus musculus with 6 samples.

Results

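Glial, vascular and immune cell markers were followed across 6 pools of mouse dorsal root ganglion neurons. The set held 46 genes that mark cells other than neurons: 20 glial genes, 14 genes of vessels and connective tissue, and 12 genes of immune or blood cells. The genes were given by name, each read from its probe set with the highest mean log2(signal + 32). Of the 46, 45 were measured, among 18193 genes in all. Periaxin (Prx), a protein of myelinating Schwann cells, had no probe set with that symbol alone. Each pool was measured as total RNA on 1 Affymetrix mouse array. Control neurons, coded L3-B, were pooled by 50, 1 pool of big diameter neurons and 1 of medium to small diameter. Each pool coded L3-S or L6-R consisted of 20 neurons retrogradely labelled with DiI, a dye that axons carry back to the cell body, again 1 pool of each size class. Left unstated were strain, age, the labelled target tissue, what the codes stand for and how many animals were used.

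In a dorsal root ganglion each neuron cell body is wrapped by a tight sheath of satellite glial cells. Its axon is ensheathed by Schwann cells, which build myelin around the thicker fibres. Capillaries with their pericytes, collagen-producing fibroblasts and resident macrophages lie between these units. A neuron picked from the ganglion can bring RNA of attached cells with it, and how much of any signal below came from such cells was not tested. In such bulk RNA, fewer cells of a type and less RNA per cell cannot be told apart.

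Neuronal genes were detected in every pool, which does not tell how free of other cells the pools were. All 14 neuronal genes checked had a signal of at least 32 in every array. Their summed signal was 76177 and 75865 for L3-B (big, then medium to small), 71038 and 78552 for L3-S, then 94436 and 79924 for L6-R. Signals under 32 lie near the background of such arrays and made up 55.3% to 59.5% of each array's probe sets, so differences among them are not resolved. The number of arrays limits the precision, and each p-value reflects no more than the spread among these pools, which may be technical.

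Of 20 markers with enough signal to test, 7 glial, connective and vessel genes were higher in the DiI labelled pools than in the control pools, led by Apoe and Rgs5. Over all genes tested, 3.07% were higher. With no filter on dim genes only Apoe and Rgs5 of the members passed. DiI labelling cannot be told apart from the number of neurons pooled. In 1 pool, L6-R medium to small, 11 of the 16 markers that reached a signal of 100 in some other pool had their highest signal. Of all genes chosen that way, 15.9% did. Most markers of macrophages and blood cells were near background in every pool. The stretches before the annotated starts of a glial, a pericyte and a fibroblast marker that were higher in the DiI pools are shown so that the genes can be placed. They are the 250 bases before the start in RefSeq (GRCm38.p6), 5′ to 3′, in lower case, with CCAAT or its reverse complement ATTGG in capitals.

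Fabp7 (chr10:57784673-57784922, plus strand): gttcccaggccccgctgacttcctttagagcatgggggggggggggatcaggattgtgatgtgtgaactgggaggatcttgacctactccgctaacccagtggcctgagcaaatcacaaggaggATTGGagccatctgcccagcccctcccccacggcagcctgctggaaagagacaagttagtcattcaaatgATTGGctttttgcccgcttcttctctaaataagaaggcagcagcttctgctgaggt

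Rgs5 (chr1:169655251-169655500, plus strand): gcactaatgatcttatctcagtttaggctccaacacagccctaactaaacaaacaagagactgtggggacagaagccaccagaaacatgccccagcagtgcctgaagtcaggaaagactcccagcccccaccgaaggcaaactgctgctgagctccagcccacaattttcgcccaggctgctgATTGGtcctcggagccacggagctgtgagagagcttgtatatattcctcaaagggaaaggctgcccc

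Col1a2 (chr6:4505368-4505617, plus strand): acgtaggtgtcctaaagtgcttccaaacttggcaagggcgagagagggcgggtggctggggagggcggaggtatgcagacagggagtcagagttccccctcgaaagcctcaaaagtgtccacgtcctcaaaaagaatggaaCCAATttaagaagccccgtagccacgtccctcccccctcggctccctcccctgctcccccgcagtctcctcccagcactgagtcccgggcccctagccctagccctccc

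CCAAT, the core letters of the site of the factor NF-Y, was chosen after the sequences had been seen. It occurred on either strand in 33.8% of the 32851 stretches of this length. Neither ACAAAG nor ACAATG, both forms of the core of SOX factor sites, occurred on either strand in these 3 stretches, and 25.2% of all stretches held at least 1 of them. The matches describe the letters only.

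Detection differed between the 3 groups. Of 19 measured glial genes, 12 had a signal of at least 32 in all 6 arrays and 2 in none. Of 14 connective and vessel genes, 4 did so in all arrays and 3 in none. Of 12 immune or blood genes, 0 reached 32 in all arrays and 7 reached it in none. The low-signal filter, which kept the upper 50% of genes by mean log2(signal + 32), passed 13 glial genes, 6 connective and vessel genes and 1 immune gene, so 20 members were tested. A member can pass that filter through the pools in which it is high. The remaining 25 members never exceeded 120 in any array.

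DiI labelled neurons were set against control neurons as the average of both DiI codes less the control code, in a limma fit to all 6 arrays with title code and size class as terms. This comparison cannot be told apart from the number of neurons pooled or from the codes. Among 20 members tested, 7 rose and 0 fell, while 13 did not pass. Over all 9097 genes tested, 3.07% rose. Of the 13 tested glial genes 4 rose (Fabp7, Apoe, Sox10 and Mbp), and of the 6 connective and vessel genes 3 rose (Col1a2, Dcn and Rgs5). The 1 tested immune gene, Csf1r, did not pass. The median difference over all measured members, tested or not, was 0.44 log2 for glial, 0.49 for connective and vessel and 0.20 for immune or blood genes, against 0.02 for all 18193 genes. The difference was above 0 in 37 of the 45, and in 53.5% of all genes. Neuronal genes had a median of 0.11, and 0 of 14 passed by limma. At an unadjusted p under 0.05, 1 of them was higher, as were 964 of all 9097 genes, with 556 lower.

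Apoe (chromosome 7), the lipid carrier that satellite glia and macrophages produce in large amounts, had signals of 540.3 and 913 for the control pools (big, then medium to small), 2764 and 3745 for L3-S, then 2394 and 5224 for L6-R. All 4 DiI pools lay above both control pools. The rise was 2.21 ± 0.21 log2 (± SE, 4 DiI and 2 control arrays, limma adjusted p = 0.00142), which is 4.63-fold, and the difference was 2.19 among the big pools and 2.24 among the medium to small pools. Fabp7 (chromosome 10), a fatty acid binding protein of satellite glia and immature Schwann cells, had signals of 272 and 249.7 for the control pools, 675 and 1766 for L3-S, then 499 and 1308 for L6-R. It too was higher in every DiI pool, and within each DiI code the medium to small pool was the higher one. It rose by 1.74 ± 0.31 log2 (n = 4 against 2, limma adjusted p = 0.0187), by 1.01 among the big and 2.46 among the medium to small pools.

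Sox10 (chromosome 15), the transcription factor that glia of the peripheral nervous system need throughout their life, had signals of 38.7 and 7.4 for the control pools, 90.9 and 105 for L3-S, then 124 and 202 for L6-R. The groups did not overlap, though the L3-B signals were near background. It rose by 1.58 ± 0.29 log2 (n = 4 against 2, limma adjusted p = 0.0198). The other 2 Sox10 probe sets stayed between 1.4 and 44.6 in all arrays, near background, and did not show this rise. Their differences with DiI were -0.21 and 0.13. The brighter of them was at 44.6 and 43.5 for the control pools, 21.8 and 34.4 for L3-S, then 36.5 and 44.6 for L6-R. Mbp (chromosome 18), myelin basic protein, had signals of 468 and 332 for the control pools, 480.2 and 1073 for L3-S, then 1179 and 2857 for L6-R. The big L3-S pool was only just above the big L3-B pool. The rise was 1.48 ± 0.34 log2 (n = 4 against 2, limma adjusted p = 0.0494), with 0.66 among the big and 2.30 among the medium to small pools.

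**Figure D1:**
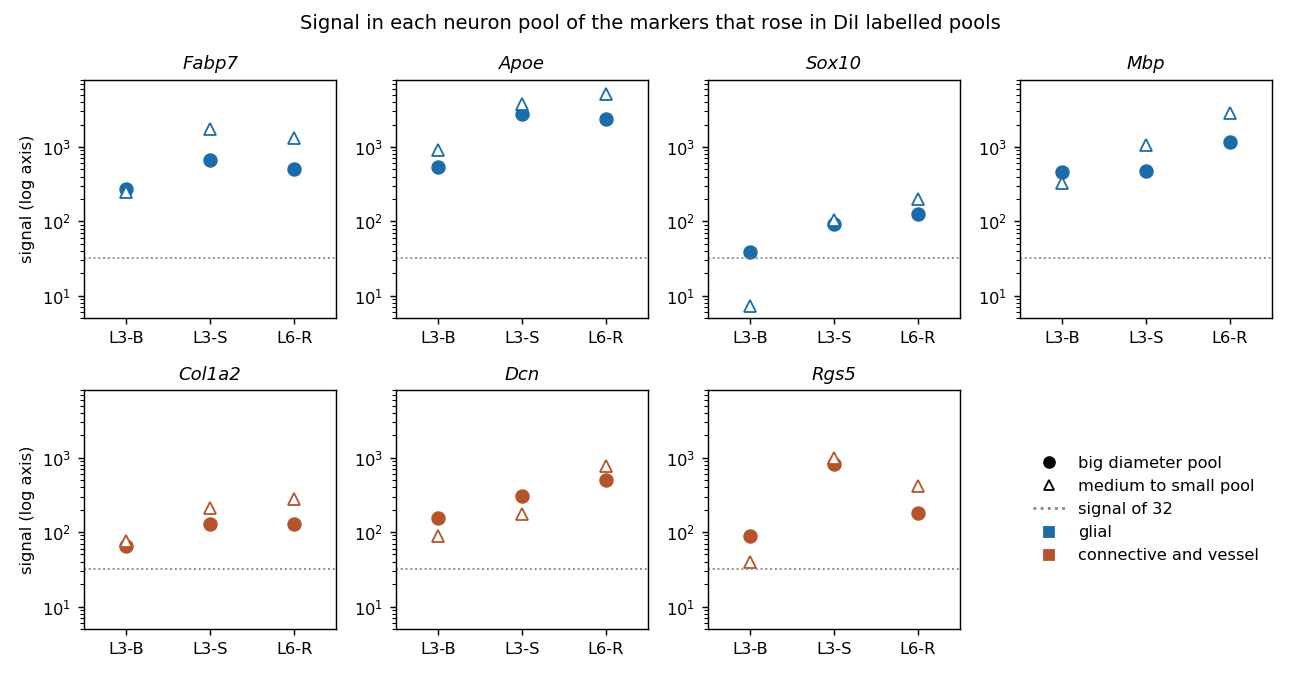
Signal (log axis) of the 7 markers that rose in DiI labelled pools, by title code; each point is 1 array, filled circles are big diameter pools, open triangles medium to small ones, and the dotted line is a signal of 32. All 4 DiI pools lie above both L3-B pools for each of the 7, and Rgs5 is highest in L3-S.

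Rgs5 (chromosome 1), a regulator of G-protein signalling that marks pericytes, showed the steepest difference of any member. Its signals were 88.7 and 40.1 for the control pools, 824 and 977 for L3-S, then 179 and 420 for L6-R, so that L3-S was highest, L6-R intermediate and L3-B lowest, without overlap. It rose with DiI by 2.52 ± 0.33 log2 (n = 4 against 2, limma adjusted p = 0.00517), which is 5.74-fold. A second probe set reached 163 and 219 for L3-S, 91.4 and 96.3 for L6-R, then 6.9 and 19.0 for the control pools, the same order of codes. Between the DiI codes Rgs5 stood at -1.59 ± 0.38 in L6-R minus L3-S (n = 2 arrays per code, limma adjusted p = 0.0721), which did not pass. Other genes of pericytes or smooth muscle did not share its high L3-S signals. In L3-S (big, then medium to small) Acta2 was at 96.4 and 26.5, and Myh11 at 1.1 and 1.8. From a list of further genes, Pdgfrb was at 24.6 and 29.7 there, and Cspg4 at 21.5 and 47.4.

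Dcn (chromosome 10), decorin, a small proteoglycan of fibroblasts, had signals of 154 and 89.1 for the control pools, 310 and 177 for L3-S, then 506 and 771 for L6-R. It rose by 1.48 ± 0.28 log2 (n = 4 against 2, limma adjusted p = 0.0244). Col1a2 (chromosome 6), a chain of type I collagen, had signals of 65.4 and 76.1 for the control pools, 127.5 and 208 for L3-S, then 130.3 and 279.7 for L6-R, and it rose by 1.03 ± 0.22 (limma adjusted p = 0.0400). Both were higher in each DiI pool than in either control pool. The partner chain Col1a1 was at 2.0 to 28.5 in all arrays, near background throughout. Sparc (chromosome 11), a matrix protein of fibroblasts and vessel cells, was at 116 and 65.6 for the control pools, 184 and 330.0 for L3-S, then 234 and 633 for L6-R, a difference of 1.51 ± 0.35 that narrowly missed the threshold (limma adjusted p = 0.0504).

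The calls differed in how far they rested on 1 control array. Apoe and Rgs5 passed in each of the 6 fits that left out an array and in all 10 and 9 other settings in which they were tested. Of the other settings, the Fabp7 call held in 8 of 10, those of Sox10 and Dcn in 4 of 9 each, that of Col1a2 in 3 of 9 and that of Mbp in 2 of 10. Averaged probe sets and scaling on neuronal genes each ended the calls of Sox10, Mbp, Col1a2 and Dcn. Without the L3-B medium to small array only Apoe and Rgs5 of the 20 members passed, and the calls of Fabp7, Sox10, Mbp, Col1a2 and Dcn were lost. Without the L3-B big array 11 members passed, and without the L6-R big array 12, all of them higher. With no filter on dim genes, so that all 45 members were tested among 18193 genes, again only Apoe and Rgs5 passed, as 0.819% of all genes then rose. That control array had the lowest 3′ to 5′ ratio of Actb signal, a measure that can grow as RNA is less complete, at 3.73 against 13.9 in the big control array and 5.42 to 12.0 in the DiI arrays. With the log2 of this ratio as a covariate 12 members passed, all higher, but 7.89% of all genes tested then rose too, against 3.07% in the main fit.

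**Figure D2:**
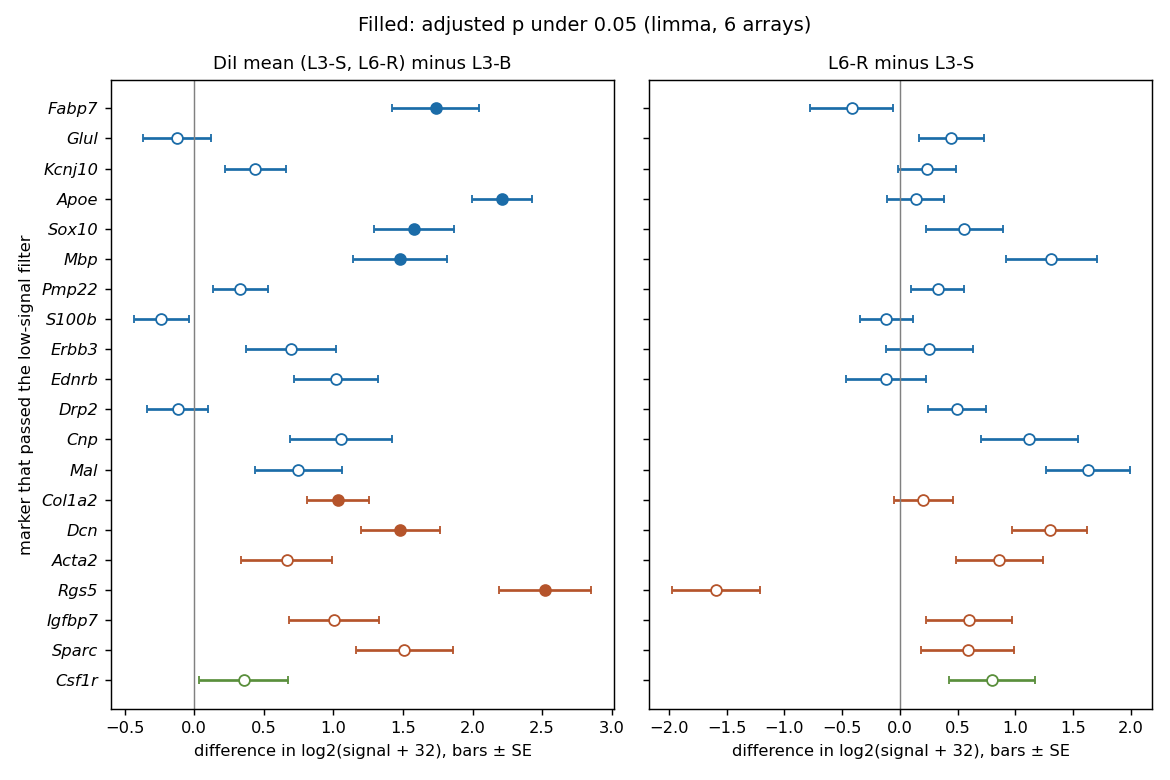
Difference in log2(signal + 32) ± SE for the 20 tested markers, as DiI mean minus L3-B (left) and L6-R minus L3-S (right); blue marks glial, brown connective and vessel, green immune genes, and filled points have an adjusted p under 0.05. On the left 7 points are filled, all higher with DiI, and on the right none is, Mal and Rgs5 lying farthest from 0.

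Other members of the glial group fell into those that differed without passing and those that were level. Ednrb, the endothelin receptor B of satellite glia and Schwann cell precursors, ranged from 101 to 416 and stood at 1.02 ± 0.30 with DiI (limma adjusted p = 0.118). Cnp, an enzyme of myelinating cells, ranged from 212 to 1348 and stood at 1.06 ± 0.37 (limma adjusted p = 0.182). On the probe set read, its L3-B pools were far apart, with 687 in the big and 212 in the medium to small pool. The other Cnp probe sets were much dimmer and did not share that gap. For the same pools, a dimmer probe set was level at 47.4 and 47.9. Another stood the other way, at 6.3 and 38.3, close to background. Erbb3, the neuregulin receptor subunit of Schwann cells, ranged from 33.7 to 175 and stood at 0.69 (limma adjusted p = 0.340). Kcnj10, the inward rectifier Kir4.1 by which satellite glia buffer potassium, ranged from 42.4 to 112 and stood at 0.44 (limma adjusted p = 0.377).

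Glul, the glutamine synthetase of satellite glia, was high in every pool, from 1099 to 2032, and its lowest signal was that of L3-S medium to small. Pmp22, a compact myelin protein that other cells make too, ranged from 2827 to 4305. S100b, a calcium-binding protein of glia that large sensory neurons of rodents also contain, ranged from 4918 to 6832. Their differences with DiI were -0.12 ± 0.24, 0.33 ± 0.20 and -0.24 ± 0.20, none of which passed. Drp2, a dystrophin-related protein of myelinating Schwann cells, ranged from 104 to 195 and stood at -0.12 ± 0.22. These 4 genes did not share the low L3-B signals of Apoe and Fabp7.

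Several other glial markers were dim, and of these Mag and Cldn19 stayed under 32 in every array. Mag, the myelin-associated glycoprotein, was at 3.2 to 25.04, and Cldn19, a claudin of Schwann cell junctions, at 1.5 to 14.8. Gfap, the filament protein that satellite glia raise after nerve injury, was at 4.9 to 48.3, with its highest signal in L3-S big. Sox2, a transcription factor of satellite glia and immature Schwann cells, ranged from 27.7 to 97.0 with all 4 DiI pools above both L3-B pools. Pllp, plasmolipin, was at 24.6 to 64.5. Sox2 reached 32 in 5 arrays and Pllp in 4. Mag, Cldn19, Gfap, Sox2, Pllp and Egr2 did not pass the filter and were not tested in the main comparison.

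The next comparison was L6-R less L3-S, the codes that shared DiI labelling and 20 neurons per pool. Of the 20 tested members 0 passed by limma, 5 being higher and 1 lower at an unadjusted p under 0.05. Over all genes 3.18% passed, in either direction. At the unadjusted level, 679 of the 9097 genes tested were higher and 743 lower. When 1 array was left out, 1 to 5 members passed: Mbp, Cnp, Mal and Dcn higher and Rgs5 lower without either L3-B array, Mal, Dcn and Acta2 higher without L3-S big, Mbp and Cnp higher without L3-S medium to small, Mal and Dcn higher without L6-R big, and Rgs5 lower without L6-R medium to small. Leaving out either L3-B array gives the same fit here, because a lone L3-B array adds nothing to this comparison. The median difference over all measured members was 0.26 log2 for glial, 0.54 for connective and vessel and 0.11 for immune or blood genes, against -0.03 for all genes. With the arrays levelled on the neuronal genes instead, these became -0.10, 0.19 and -0.24, against -0.39 for all genes. The glial and the immune medians thus changed sign with the scaling, while all 3 stayed above that of all genes.

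Among tested members, Mal and Rgs5 stood farthest apart between L6-R and L3-S. Mal (chromosome 2), a proteolipid of myelin membranes, had signals of 146 and 303 for L6-R, 64.2 and 32.5 for L3-S, then 65.9 and 37.7 for the control pools. Both L6-R pools were above all 4 others. It differed by 1.63 ± 0.36 log2 (n = 2 arrays per code, limma adjusted p = 0.0515), which narrowly missed the threshold. Mbp stood at 1.31 ± 0.39 (limma adjusted p = 0.132). Of its 8 probe sets, 4 others stood between 1.62 and 1.82, whereas a pair that stayed at or below 244 in every array stood on the other side of 0, at -0.93 and -0.78.

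Egr2 (chromosome 10), the transcription factor Krox20 that drives myelination, had signals of 96.1 and 114 for L6-R, 17.9 and 10.7 for L3-S, then 66.2 and 13.8 for the control pools. Its second probe set gave the same order, with 85.8 and 139 for L6-R against 1.7 and 18.3 for L3-S. Egr2 was outside the filter, and since its L3-S signals lay under 32 no size is given for the difference. Cnp stood at 1.12 ± 0.42 (limma adjusted p = 0.235) and Dcn at 1.30 ± 0.33 (limma adjusted p = 0.0842). Acta2, the actin of smooth muscle and some pericytes, had signals of 101 and 155 for L6-R against 96.4 and 26.5 for L3-S and stood at 0.86 ± 0.38 (limma adjusted p = 0.318). Fabp7 stood at -0.42 ± 0.36 and Apoe at 0.14 ± 0.25, neither of which passed.

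Among the 24 members that reached a signal of 100 in at least 1 array, 12 had all 4 DiI pools above both L3-B pools, against 13.1% of all 8646 genes that reached 100. Both L6-R pools were above both L3-S pools in 11 of the 24, against 26.0% of those genes. The reach of 100 and these counts were chosen with the values known, and a gene can enter through its highest pool.

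The pools themselves differed most through L6-R medium to small. Of the 24 members, 19 had their highest signal there, against 17.4% of all genes that reached 100. Of these 19, 8 reached 100 in that pool alone and so entered through it (Kcnj10, Erbb3, Egr2, Col3a1, Cldn5, Igfbp7, Csf1r and C1qb). Of the other 16 members, which reached 100 in another pool as well, 11 were highest in L6-R medium to small, against 15.9% of all genes chosen that way. Of the 45 measured members, 11 lay at least 1 log2 above their own median over the 6 arrays in that pool, where 1.45% of all 18193 genes did. The count was 6 without the L3-B medium to small array and 7 without the L3-B big array. It was 5 with scaling on neuronal genes, 6 with the larger pseudocount or with averaged probe sets, and 24 with a pseudocount of 1. The 11 were Fabp7, Apoe, Mbp, Erbb3, Ednrb, Egr2 and Mal of the glial group and Dcn, Cldn5, Igfbp7 and Sparc of the connective and vessel group. In the other pools such members were few. L6-R big held 1 (Dcn, 1.06% of all genes), L3-S big 1 (Rgs5, 0.297%), L3-S medium to small 2 (Fabp7 and Rgs5, 0.709%), L3-B big 1 (Flt1, 0.412%) and L3-B medium to small 0 (0.368%). The median glial member was 0.69 log2 above its own 6-array median in L6-R medium to small, and in the other pools this value ran from -0.42 to 0.11.

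**Figure D3:**
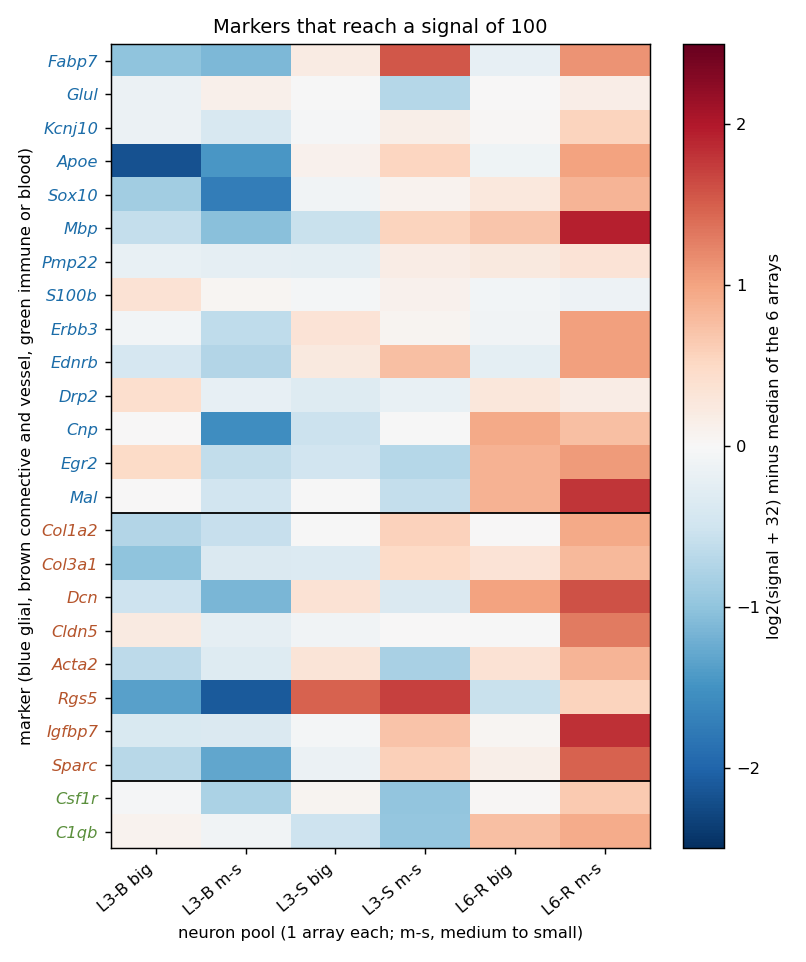
Colour map of log2(signal + 32) minus the median of the 6 arrays for the 24 markers that reached a signal of 100, in rows by group, with 1 column per pool. The L6-R medium to small column is warm in nearly every row, the L3-B columns are mostly cool, and the warmest L3-S cells are Rgs5 and Fabp7.

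Igfbp7, a secreted binding protein of vessel walls, had a signal of 226 in L6-R medium to small and 24.4 to 88.5 elsewhere. Cldn5, the tight junction claudin of endothelium, had 120 there and 20.3 to 39.7 elsewhere. Of the other endothelial members, Pecam1 was at 24.9 there and at most 5.6 elsewhere. Kdr, a VEGF receptor, was at 59.0 there and at most 31.3 elsewhere. Flt1, another VEGF receptor, was highest in L3-B big, at 47.6. Pecam1, Kdr and Flt1 lay near background, so no order among their pools is resolved. From a list of further genes, Cdh5, Tek and Emcn were at most 18.4, 32.6 and 21.5 in any array. By contrast Egfl7 ran from 245 to 331 and Esam from 57.4 to 141. Their differences with DiI were 0.08 and 0.03, and neither passed (limma adjusted p = 0.897 and 0.979). Myh11, the myosin of smooth muscle, was at most 20.2 in any array, and Lum, a proteoglycan of fibroblasts, at most 51.9. Col3a1, a fibroblast collagen, ran from 8.2 to 111, with its highest signal in L6-R medium to small.

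Of the immune and blood cell genes, 7 stayed under 32 in every array. Ptprc, the surface protein CD45 of all white blood cells, was at 2.2 to 17.9, and the macrophage genes Cd68, Aif1 and C1qa were at 2.8 to 22.3, 1.0 to 17.2 and 1.0 to 7.7. Tyrobp and Fcer1g, adaptors of myeloid receptors, were at 2.3 to 37.4 and 4.7 to 20.2, and the microglia and macrophage receptor Cx3cr1 at 4.0 to 22.0. Alas2, the haem synthesis enzyme of red cell precursors, was at 2.0 to 7.1. The summed signal of the 12 genes was 203 and 171 for the control pools, 265 and 167 for L3-S, then 301.5 and 471 for L6-R.

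C1qb, a complement subunit of macrophages, reached 95.2 and 109.8 in L6-R, against 20.5 and 6.6 in L3-S and 47.4 and 38.9 in L3-B. A dimmer C1qb probe set stayed under 32 in every array, from 1.8 to 28.4. Another kept L6-R (53.6 and 58.0) above L3-S (0.91 and 2.1). Both this probe set and the one read are of a design, named _x_at, whose probes can also match other transcripts. The dimmer one is not. C1qb was outside the filter. With no filter it passed in L6-R minus L3-S (limma adjusted p = 0.0469), the single member to do so, although its L3-S signals lay under 32, and its partner C1qa stayed at or below 7.7. Csf1r, the growth factor receptor of macrophages, was at 122 in L6-R medium to small and at 18.0 to 71.1 elsewhere. This depended on the probe set. Another Csf1r probe set was about level between L3-B medium to small (73.8) and L6-R medium to small (71.8). A dimmer Csf1r probe set was highest in L6-R medium to small, at 36.4 against 11.8 to 25.5. Lyz2, macrophage lysozyme, was at 85.9 in that pool and 14.2 to 43.1 elsewhere. Cd74, of antigen-presenting cells, was level at 27.2 to 43.6.

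**Figure D4:**
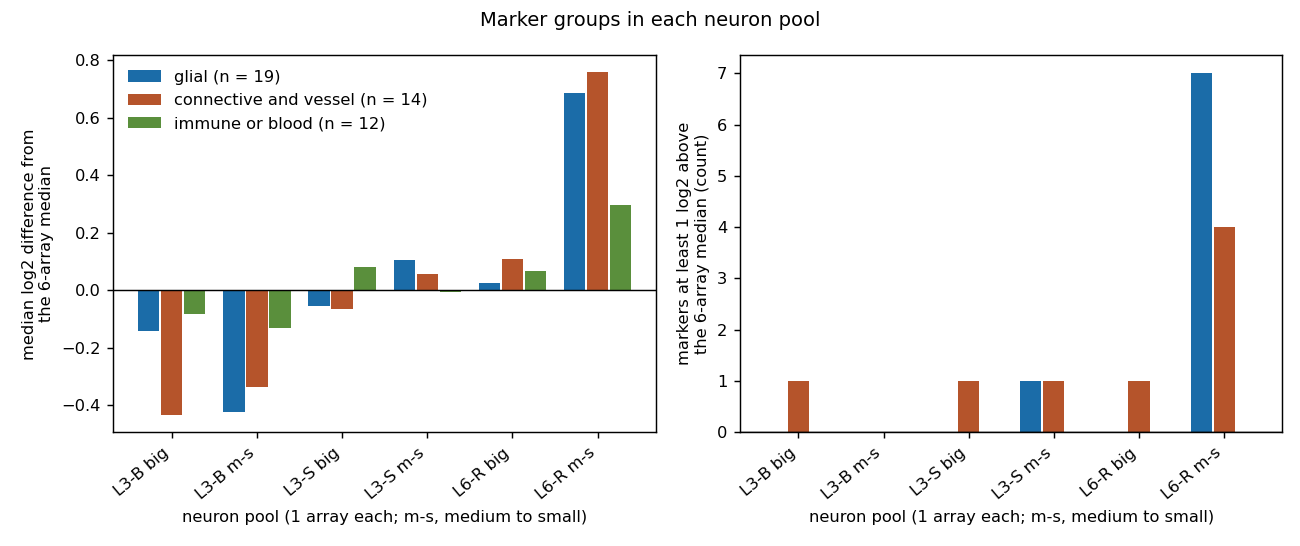
Left, the median difference of each marker group from the 6-array median, in log2(signal + 32), for each pool; right, the number of its markers at least 1 log2 above that median. L6-R medium to small holds 7 glial and 4 connective and vessel markers past this line, and the other pools hold 0 to 2 members in all.

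Markers on lists of further non-neuronal genes gave the same pool the most raised signals. Of 14 other glial genes measured, 4 lay at least 1 log2 above their median in L6-R medium to small (Ptprz1, Ncmap, Cdh19 and Ugt8a) and 0 in any other pool. Of 15 other connective and vessel genes 1 did, Vim, and of 13 other immune or blood genes 3 did (Ctss, S100a8 and S100a9), again with 0 in any other pool. Over all genes, 1.45% did so in L6-R medium to small and 0.297% to 1.06% in each of the others. S100a8 and S100a9, the calprotectin subunits that neutrophils hold in bulk, had signals of 440.4 and 167 in that pool. In the other 5 arrays S100a8 was at 0.8 to 38.0 and S100a9 at 4.6 to 18.6. Ncmap, a protein of peripheral myelin, had 216 there and 15.9 to 59.5 elsewhere, and Cdh19, a cadherin of Schwann cells, 241 there and 24.4 to 98.5 elsewhere.

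In the comparisons, 1 of 4 tested other glial genes rose with DiI, Ptprz1, a receptor phosphatase of glia (1.42 ± 0.32, limma adjusted p = 0.0445). Of 5 tested other connective and vessel genes 2 rose: Timp3, a metalloproteinase inhibitor (2.09 ± 0.27, limma adjusted p = 0.00440), and Vim, the filament protein vimentin (1.87 ± 0.42, limma adjusted p = 0.0449). Over all genes tested, 3.07% rose. With no filter only Timp3 still passed (limma adjusted p = 0.0319), against 0.136 for Ptprz1 and 0.150 for Vim. Timp3 had signals of 51.4 and 29.6 for the control pools, 196 and 289.6 for L3-S, then 230.1 and 417.5 for L6-R, all DiI pools being above the control pools. In L6-R minus L3-S, Ugt8a, an enzyme of myelin lipid synthesis, rose by 1.15 ± 0.24 (limma adjusted p = 0.0426), as did 1.26% of all genes. It did not pass with no filter (limma adjusted p = 0.104). The 1 tested gene of the further immune list passed neither comparison by limma.

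Big neurons were set against medium to small ones over the 3 codes. None of the 20 tested members passed by limma, and 0% of all genes did. At an unadjusted p under 0.05, 0 members were higher and 4 lower in the big pools (Fabp7, Apoe, Col1a2 and Igfbp7). Of all 9097 genes tested, 94 were higher and 226 lower at that level. Apoe stood at -0.76 ± 0.20 (n = 3 arrays per class, limma adjusted p = 0.998) and was lower in the big pool of each of the 3 codes. Fabp7 stood at -0.86 ± 0.29, with -1.35 and -1.34 in L3-S and L6-R and 0.11 in L3-B. Igfbp7 stood at -0.85 ± 0.30 and Col1a2 at -0.56 ± 0.21. The median over all measured members was -0.10 log2 for glial, -0.20 for connective and vessel and 0.00 for immune or blood genes, against 0.01 for all genes.

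Members varied together across pools in more than 1 pattern. Over the 6 arrays, which differ also in neuron number and RNA completeness, Kcnj10 and Sparc correlated at 0.98, Fabp7 and Ednrb at 0.96, and Apoe and Col1a2 at 0.95 (Pearson r of log2 values, given as a description). Mbp correlated with Sparc at 0.95 and with Dcn at 0.84. Rgs5 correlated with Fabp7 at 0.88 but with Mal at 0.08, and Egr2 with Mal at 0.89 but with Fabp7 at -0.01. The median over pairs of members that reached 100 was 0.56 among 91 glial pairs, 0.69 among 28 connective and vessel pairs and 0.64 among 112 pairs across these groups. No such median was computed over all genes, so these are not read as high or low. Of the 24 members used, 8 reached 100 in L6-R medium to small alone, a choice that can itself raise the correlations. The pairs named are a selection from all pairs of these members. S100b ran the other way from some markers, at -0.78 with Apoe.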

How the data were processed

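The authors deposited 1 table of linear signal intensity for 45037 probe sets and 64 control probe sets on 6 arrays. The mean of each array after trimming 2% at each end was 150, so the intensities were taken as scaled already. How probe sets were summarised and scaled is not stated. An RNA isolation kit is named, per the labels. Probe sets were named from the platform annotation: 34945 had 1 symbol, 932 several and 9160 none. Among members, the probe sets read for Mbp, Cnp, C1qb, Acta2 and Aif1 had names ending in _s_at or _x_at. The probes of such sets can also match other transcripts. Each of 18193 genes was read from its probe set with the highest mean log2(signal + 32), and the upper 50% (9097 genes, mean log2 of at least 6.41) were tested.

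R 4.3.3 with limma 3.58.1 fitted title code and size class, additively, to all 6 arrays (2 residual and 6.46 prior degrees of freedom, two-sided, Benjamini-Hochberg over the genes tested, threshold 0.05). Each combination of code and size class had 1 array, so the spread is what the additive fit leaves, and an interaction cannot be tested. Groups of markers are described by counts and medians without a test. The code of the fit was run on simulated data with planted changes and 1 common spread for all genes. These pools need not share that spread, so the run does not show how reliable the calls are.

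The members, lists and rules were chosen with earlier results of these data known. Members that passed the filter or reached a signal of 100 were to be named with values and the rest with ranges. Of the further lists, those past a threshold or at least 1 log2 above the 6-array median were to be named (Timp3, Vim, Ptprz1 and others). Outside this rule, Pdgfrb, Cspg4, Cdh5, Tek, Emcn, Egfl7 and Esam were added for comparison. Alternatives were pseudocounts of 1 and 128, quantile normalization, eBayes with a trend, array weights, averaging all probe sets of a gene, testing the upper 25% of genes or all of them, the Actb ratio as a covariate, each array left out, and, added after seeing the data, scaling on the neuronal genes and counting only members that reached 100 in another array.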

Additional observations from a re-analysis of the deposited data

Results flagged for a closer look

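Lyz2, macrophage lysozyme, moved in opposite directions in the 2 size classes between the DiI codes: L6-R minus L3-S was -0.70 log2 in the big pools and 0.75 in the medium to small pools. Its signals were 43.1 and 14.2 in the big L3-S and L6-R pools and 38.2 and 85.9 in the medium to small ones, all low, with 1 array each. The difference between size classes was not tested.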

How the results depend on the processing

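No paired analysis was possible because each combination of code and size class has 1 array and hence no replicate number to pair by, although the fit itself already compares the codes within size classes. In L6-R minus L3-S the genes that passed (289) became 148 with a pseudocount of 1, 107 with no filter, 115 in the upper 25% of genes, 994 with the Actb ratio, 633 with array weights and 619 with scaling on neuronal genes. In DiI minus L3-B they (392) became 197 with no filter, 140 in the upper 25%, 258 with array weights and 1078 with the Actb ratio. In big minus medium to small the Actb ratio gave 2 genes, against 0. The members that rose with DiI (7) became 3 with a pseudocount of 1, with averaged probe sets and with scaling on neuronal genes, 4 with the larger pseudocount and with array weights, 2 with no filter and in the upper 25%, and 12 with the Actb ratio. In L6-R minus L3-S the members that passed (0) became 1 with the larger pseudocount (Rgs5, lower), with quantile normalization (Mal, higher), with no filter (C1qb, higher) and with scaling on neuronal genes (Rgs5, lower), 4 with array weights and 6 with the Actb ratio.

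With a pseudocount of 1, the median of connective and vessel genes stood at -0.45 (big minus medium to small) and 0.996 (DiI minus L3-B) and that of immune or blood genes at 0.45 (L6-R minus L3-S) and 0.70 (DiI minus L3-B). In L6-R minus L3-S the connective and vessel median was 0.22 with the larger pseudocount and 0.28 with averaged probe sets. Scaling on neuronal genes gave -0.10 (glial), 0.19 (connective and vessel) and -0.24 (immune or blood) there. It shifted the median of all genes from -0.03 to -0.39 there, from 0.02 to -0.18 in DiI minus L3-B and from 0.01 to 0.16 in big minus medium to small. Members at least 1 log2 above their median numbered, with a pseudocount of 1, 2 in L3-B medium to small, 3 in L3-S big, 4 in L3-S medium to small, 5 in L6-R big and 24 in L6-R medium to small. With the larger pseudocount they were 0 in L3-B big and L6-R big and 6 in L6-R medium to small. Averaged probe sets gave 0 in L3-B big, L3-S big and L6-R big, 1 in L3-S medium to small and 6 in L6-R medium to small, and scaling on neuronal genes 0 in L6-R big and 5 in L6-R medium to small. The members highest in L6-R medium to small, 19 of 24, became 11 of 16 when only those that reached 100 in another array were counted, a rule that by construction takes fewer genes.

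With 1 array left out, the genes that passed ran from 0 to 1 (big minus medium to small), 140 to 653 (L6-R minus L3-S) and 334 to 590 (DiI minus L3-B), and members from 1 to 5 (L6-R minus L3-S) and 2 to 12 (DiI minus L3-B). Medians ran from -0.35 to 0.070 (glial) and -0.46 to -0.033 (connective and vessel) for size, 0.10 to 0.52 and 0.034 to 0.82 for L6-R minus L3-S, and 0.17 to 0.79 and 0.33 to 0.78 for DiI minus L3-B. Raised members ran from 0 to 1 in L3-B big and in L3-S big, 2 to 4 in L3-S medium to small, 0 to 3 in L6-R big and 6 to 12 in L6-R medium to small. For single members and all alternatives, 752 values kept their side of the threshold or moved by less than the spread, 52 came to pass, 32 no longer passed, 265 that did not pass moved by more than the spread and 0 passing differences changed direction. The causes were not tested, except that no filter and the upper 25% change how many genes share the adjustment. Signal over background limits the dim members, whose differences shrink towards 0 on the log2(signal + 32) scale. The number of neurons pooled cannot be told apart from DiI labelling.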
